A study of Mus musculus with 2 samples.

Results

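The transcripts of 6 genes that handle lipid outside and inside the hepatocyte, Apoa4, Pltp, Lpl, Plin5, Crat and Acot4, were followed in mouse liver after parenteral nutrition (PN), the infusion of nutrients into a vein. They were the rows of the deposited table whose platform annotation gave exactly 1 gene symbol out of these names. The names were grouped by function, with earlier results of these data known. They had 7 of the 5082 rows and made up 6 of the 1750 genes with a name of their own. All the mice were wild-type C57BL/6J, an inbred strain, aged 6 to 10 weeks, and all had a jugular vein catheter placed on day 1 and saline infused from day 2. From day 3 the control mice stayed on saline and could eat, whereas the PN mice received PN and had no food, so that infusion and food removal differed together. Livers were taken on day 11, after 8 days on either regimen. RNA of 3 mice per group was pooled and each pool was measured on 1 array, so there was no replicate check, and no error, standard deviation or test could be given. One label of the PN sample, its source name, also uses the word control, whereas its title and mouse group give PN, which was followed here. The labels used here give neither the sex of the mice nor the composition of the PN mixture.

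Triglyceride leaves the liver in very low density lipoproteins, whose surface carries apolipoproteins and whose phospholipid is exchanged in plasma by transfer proteins. Lipases at the vessel wall release the fatty acids again. Inside hepatocytes, triglyceride is kept in droplets coated by perilipins, and fatty acids freed from it are bound to coenzyme A (CoA). Acyl groups can then be passed to carnitine by acyltransferases or split from CoA by thioesterases. Several of these genes are known targets of PPARA, the nuclear receptor that senses fatty acids in the fasted liver.

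In the PN pool 5 of the 6 genes were higher and 1, Plin5, was lower. Among all 1750 named genes 50.2% were higher. The higher genes ranged from 1.58-fold for Acot4 to 2.77-fold for Apoa4. Apoa4 was the only one of the 6 past a 2-fold difference, beside 14.8% of all named genes. The median difference of the 6 genes was 0.74 on the log2 scale, and that of the absolute differences was 0.81, against 0.73 for all named genes. The deposited table holds only rows that differed by at least 1.5-fold (0.58 on the log2 scale), so a difference of that size was a condition for having a value. A gene named below without a value may have differed by less, or may carry no name of its own here.

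**Figure D1:**
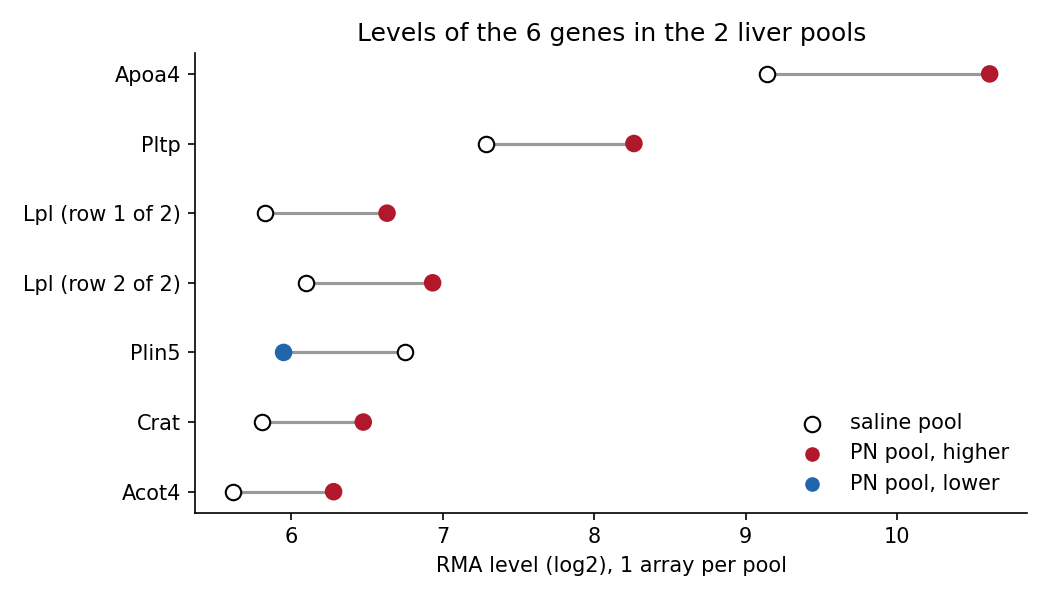
RMA level on the log2 scale (horizontal axis) of each row of the 6 genes, with open circles for the saline pool and filled circles for the PN pool, 1 array each. The PN circle lies to the right of the saline circle in every row except that of Plin5, and the 2 rows of Lpl shift by nearly the same distance.

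The DNA in front of the 2 genes at opposite ends, Apoa4 with the highest difference and Plin5 with the only lower level, is shown here from the RefSeq promoter table (build GRCm38.p6). Each window holds the 250 bases before a transcription start, read 5′ to 3′ along the gene. Capitals mark matches, on either strand, to the motifs searched. The Apoa4 window is chr9:46240594-46240843, plus strand, and the Plin5 window is chr17:56117549-56117798, minus strand, at the start that lies further upstream of the 2 listed for this gene.
Apoa4: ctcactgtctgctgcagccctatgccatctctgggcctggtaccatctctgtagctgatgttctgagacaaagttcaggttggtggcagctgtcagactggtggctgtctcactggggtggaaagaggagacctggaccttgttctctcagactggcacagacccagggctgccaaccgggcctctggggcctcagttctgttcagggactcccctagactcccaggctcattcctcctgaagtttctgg
Plin5: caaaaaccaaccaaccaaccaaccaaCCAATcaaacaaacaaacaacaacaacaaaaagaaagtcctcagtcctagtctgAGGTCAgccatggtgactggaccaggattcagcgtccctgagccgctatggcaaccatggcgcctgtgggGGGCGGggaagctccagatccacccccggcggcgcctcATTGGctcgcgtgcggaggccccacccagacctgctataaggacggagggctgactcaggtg

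The Apoa4 window held no match to any of the 9 motifs searched, at 57.6% G and C and 1 CG dinucleotide. The Plin5 window held the half-site AGGTCA of nuclear receptors 170 bases before the start, a GC box (GGGCGG) at 100 bases and CCAAT boxes (CCAAT) at 224 and 62 bases. Its content of G and C was 58.0%, with 11 CG dinucleotides, against a median of 52.4% and 6 over 32851 windows of the same length. The second Plin5 start had 2 GC boxes and none of the other motifs. In the corresponding Acot4 window a half-site lay 13 bases before the start, an E-box (CACGTG) at 66 bases, a CCAAT box at 85 bases and TATA boxes (TATAAA) at 205, 153 and 151 bases, the last 2 overlapping on opposite strands. The Pltp window held a GC box at 37 bases and a CCAAT box at 182 bases. None of the 5 windows of these 4 genes held a cyclic AMP response element (TGACGTCA) or the paired half-sites DR1, DR4 and IR1, each of which includes the single half-site. Lpl and Crat had no window in the RefSeq promoter table and were not scanned. Over all windows the half-site was found in 14.0%, the GC box in 32.7%, the CCAAT box in 33.8%, the TATA box in 12.4%, the E-box in 6.02% and the cyclic AMP response element in 1.55%. DR1 was found in 0.0335% of all windows, DR4 in 0.0152% and IR1 in 0.00609%. These matches are letters in a window and say nothing of what binds there.

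Apoa4 encodes an apolipoprotein of chylomicrons, very low density and high density lipoproteins that the mouse makes in intestine and liver. Its level was 9.14 with saline and 10.6 with PN, which differ by 1.47 on the log2 scale. That difference ranked at 33 of the 878 named genes that were higher. There were 21 named genes, Apoa4 included, within 0.50 of its mean level, and none of the others had a larger absolute difference. Apoa4 lies in a cluster with Apoa1, Apoc3 and Apoa5, which encode other apolipoproteins, and none of these neighbours had a named value. Of the 23 other genes on the apolipoprotein list 1 had a value: Apol9b, a member of the apolipoprotein L family, was 2.04-fold lower, at 7.82 and 6.79.

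Apoa4 is also a gene of the intestinal epithelium. Of 12 markers of that tissue 6 had a named value, of which 4 were higher and 2 lower. Their summed linear level was 1108 with saline and 1882 with PN. Fabp2, a fatty acid binding protein also made in liver, went from 9.95 to 10.8 and made up most of these sums. The other 5, among them the mucin gene Muc2 and the homeobox genes Cdx1 and Cdx2, had levels between 3.74 and 5.41, with Cdx2 1.84-fold higher and Cdx1 1.74-fold lower. The part of such cells in the Apoa4 difference was not tested.

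Pltp encodes the phospholipid transfer protein, which moves phospholipid between lipoproteins in plasma and is made by liver and macrophages, among other cells. Its level was 7.29 with saline and 8.26 with PN, which differ by 0.98, or 1.97-fold, just short of 2-fold. It ranked at 148 of the 878 higher genes. With the 2 columns quantile normalized the difference was 1.01, past 2-fold.

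Lpl encodes lipoprotein lipase, which frees fatty acids from the triglyceride of circulating lipoproteins. It is low in hepatocytes of adult liver and is made by macrophages as well as by fat and muscle. Its 2 rows went from 5.83 to 6.63 and from 6.10 to 6.93. Both were thus higher in the PN pool, by 0.80 and 0.84 on the log2 scale, and their mean difference was 0.82, or 1.76-fold. The rows differed from each other in level by 0.27 with saline and by 0.30 with PN, whereas their differences between the pools lay 0.03 apart. This gap was the fourth smallest of 22 genes with several rows, whose median gap was 0.17. Of these 22 genes 18 had all their rows in the same direction. A row that differed by less than 1.5-fold could not appear, so such gaps say little about how well rows agree. The 2 Lpl rows share their RNA and arrays and are not replicates.

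Of 33 other genes of lipoprotein assembly, remodelling and uptake, 3 had a named value. Lipg, which encodes endothelial lipase, a relative of Lpl, was 1.57-fold higher, at 5.26 and 5.91. Lmf1, the maturation factor that these lipases need in order to fold, was 1.55-fold lower, at 7.24 and 6.61. Sort1, the sorting receptor sortilin, was 1.68-fold lower, at 6.64 and 5.89. The 2 lipase genes and their maturation factor thus went in opposite directions. The median difference of these 3 genes was -0.63.

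Macrophage markers were looked at as well. Of 28 such markers 14 had a named value, all of them higher after PN, and the median difference was 0.82. The rest, among them Adgre1, Csf1r and Timd4, had no named value. Among all named genes 50.2% were higher. The median of all 878 higher named genes was 0.73, in a table without differences under 0.58. The summed linear level of the 14 markers was 1891 with saline and 3235 with PN, a ratio of 1.71. The Kupffer cell genes Clec4f and Vsig4 were 1.53-fold and 1.55-fold higher, the pan-macrophage gene Cd68 1.65-fold and the scavenger receptor gene Marco 5.15-fold. The saline levels of the 14 began at 3.35, for Spic, near the background level of 3.26 used below. The part of macrophages in the Pltp and Lpl differences was not tested, and in RNA of whole liver more cells of a type and more RNA per cell cannot be told apart. Of 10 adipocyte markers Retn alone had a named value, and of 12 markers of muscle Myh6 alone. Both were lower, by 1.62-fold and 1.57-fold. None of the 12 endothelial markers had a named value. Of the stellate cell and fibroblast list of 13, Lum was 1.91-fold higher. Of 9 cholangiocyte markers Prom1 was higher, and Epcam and Tspan8 were lower. Prom1 was at 3.21 with saline, under the background level of 3.26, and Epcam at 3.61 with PN, near it. None of the 15 hepatocyte markers had a named value, so the labelled tissue could not be checked with that list. Cyp7a1, a bile acid synthesis gene of hepatocytes named here after its value was seen, was at 8.77 and 10.0.

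**Figure D2:**
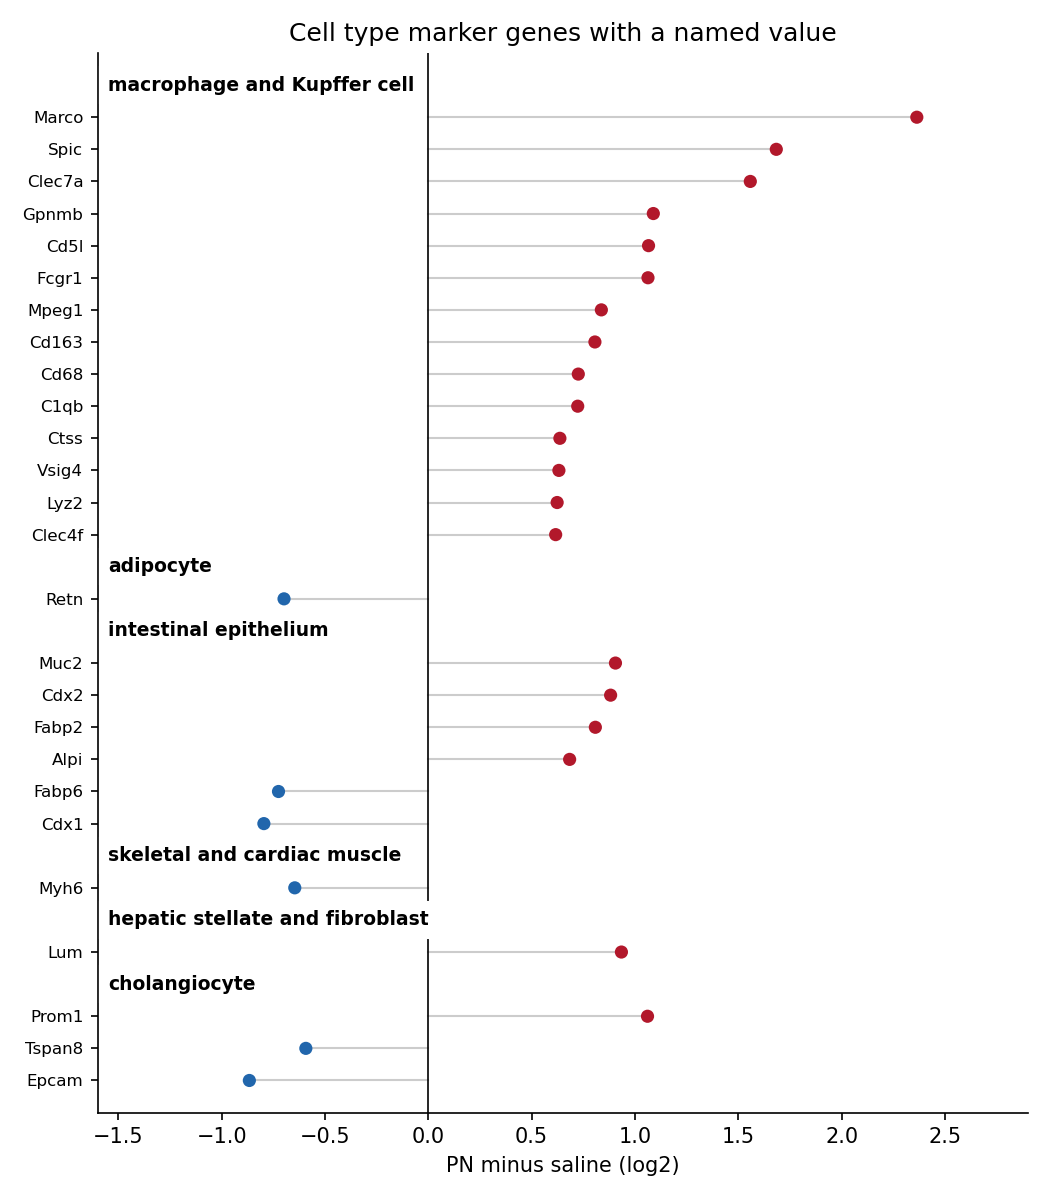
Difference between the PN pool and the saline pool on the log2 scale (horizontal axis) of each cell type marker with a named value, by list, with red points higher and blue points lower in the PN pool. All 14 macrophage and Kupffer cell markers lie to the right of 0, and the intestinal markers lie on both sides.

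Plin5 encodes perilipin 5, a droplet coat protein of tissues that burn fat, where it ties droplets to mitochondria and restrains the lipase encoded by Pnpla2. Its level was 6.75 with saline and 5.95 with PN, which gives a difference of -0.80, or 1.74-fold lower. It ranked at 295 of the 872 lower genes by size. The neighbouring perilipin gene Plin4 had no named value, and neither did Plin1, Plin2 or Plin3.

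Of 32 other genes of droplet coat and lipolysis 3 had a named value, with a median difference of -0.67. Ces3b, a carboxylesterase of the endoplasmic reticulum, was 1.90-fold lower, at 9.47 and 8.54. Fitm1, which takes part in droplet formation, was 1.59-fold lower, at 7.53 and 6.86. Pnpla3, a droplet protein of the patatin family that is known to follow feeding and lipid synthesis, was 1.63-fold higher, at 4.31 and 5.01. With Plin5, 3 of the 4 genes on this list with a value were lower, beside 872 of all 1750 named genes.

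Crat encodes carnitine acetyltransferase, which exchanges short acyl groups between CoA and carnitine. Its level was 5.81 with saline and 6.47 with PN, which differ by 0.67, or 1.59-fold. It ranked at 594 of the 878 higher genes and exceeded the cutoff by 0.08. Of the 13 other genes of carnitine acyl transfer, Slc22a4, an organic cation transporter of the carnitine transporter family, had a named value. It was 1.81-fold lower, by a difference of -0.86 from a saline level of 4.85. The long-chain enzymes Cpt1a and Cpt2, which admit fatty acids to mitochondria, and the medium-chain enzyme Crot had no named value.

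Acot4 encodes a peroxisomal acyl-CoA thioesterase, which splits acyl-CoA into free acid and CoA. Its level was 5.62 with saline and 6.28 with PN, which differ by 0.66, or 1.58-fold, at rank 609 of the 878 higher genes. It too lay 0.08 past the cutoff. Among the 282 named genes within 0.50 of its mean level, 68.4% had a larger absolute difference, and for Crat this share was 66.5% of 260. Acot4 sits in a cluster of related thioesterase genes, and its neighbours Acot1, Acot2, Acot3, Acot5 and Acot6 had no named value. Which copy a probe set of such a family measures is uncertain. Of the 20 other thioesterase genes Ppt2, a lysosomal enzyme, had a value and was 1.53-fold lower, at 7.22 and 6.61.

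**Figure D3:**
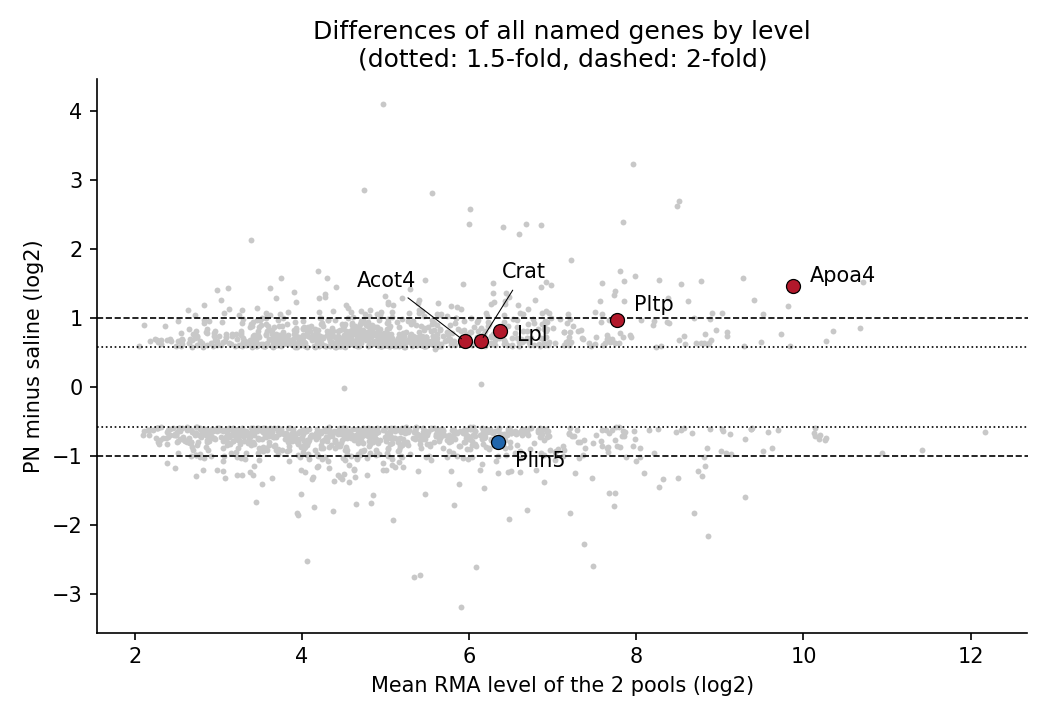
Difference between the pools (vertical axis, log2) against the mean level of both pools (horizontal axis, log2) for the 1750 named genes in grey, with the 6 genes in red (higher) or blue (lower) and lines at 1.5-fold (dotted) and 2-fold (dashed). Apoa4 lies above the dashed line, Pltp at that line, and Crat and Acot4 next to the dotted line; the few points between the dotted lines are means of rows with opposite directions.

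Besides these enzymes, 4 of 32 genes of acyl-CoA synthesis, binding and uptake had a named value, of which 3 were higher. Abcd2, a transporter of fatty acyl-CoA into peroxisomes, where Acot4 acts, went from 4.72 to 7.29, or 5.97-fold. Among the fatty acid binding proteins Fabp7 went from 7.18 to 8.79, or 3.05-fold, and Fabp2 was 1.75-fold higher. Fabp5 was 1.55-fold lower, with both of its rows lower. A row shared by Acsl3, an acyl-CoA synthetase, and Utp14b was not counted and went from 6.21 to 7.19.

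Of 39 genes listed for fatty acid oxidation 3 had a named value, and these were lower, with a median difference of -0.66, that of Nudt7. All 3 are peroxisomal proteins, as is Acot4. Acox3, an acyl-CoA oxidase, was 1.69-fold lower, at 6.78 and 6.02. Nudt7, which degrades CoA and is not itself an enzyme of oxidation, was 1.58-fold lower, at 9.91 and 9.25. Eci3, an enoyl-CoA isomerase, was 1.56-fold lower, at 4.31 and 3.67, the latter near the background level of 3.26 used below.

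Acot4, Crat and Plin5 were also on the list of PPARA and its targets, where Acot4 and Crat were higher and Plin5 lower. Of the 32 other genes on it 4 had a named value and were higher, with a median of 1.07. Beside Abcd2 these were Ppargc1a, a coactivator induced by fasting, at 2.38-fold, the fasting hormone gene Fgf21 at 1.85-fold and Txnip, which restrains glucose uptake, at 1.61-fold. The row shared by Cyp4a10 and Cyp4a32, also on this list, was not among these 4 and went the other way. It was 2.74-fold lower in the PN pool, a difference of -1.46, and with it counted the median was 0.89. Cpt1a, Pdk4 and Angptl4, which this receptor is known to induce in fasting, had no named value.

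Over the 8 pathway lists together, 203 genes other than the 6 were listed. Of these 19 had a named value, 8 higher and 11 lower, with a median of -0.63. For all named genes 878 were higher and 872 lower, with a median of 0.59, since the cutoff leaves nearly no differences around 0.

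**Figure D4:**
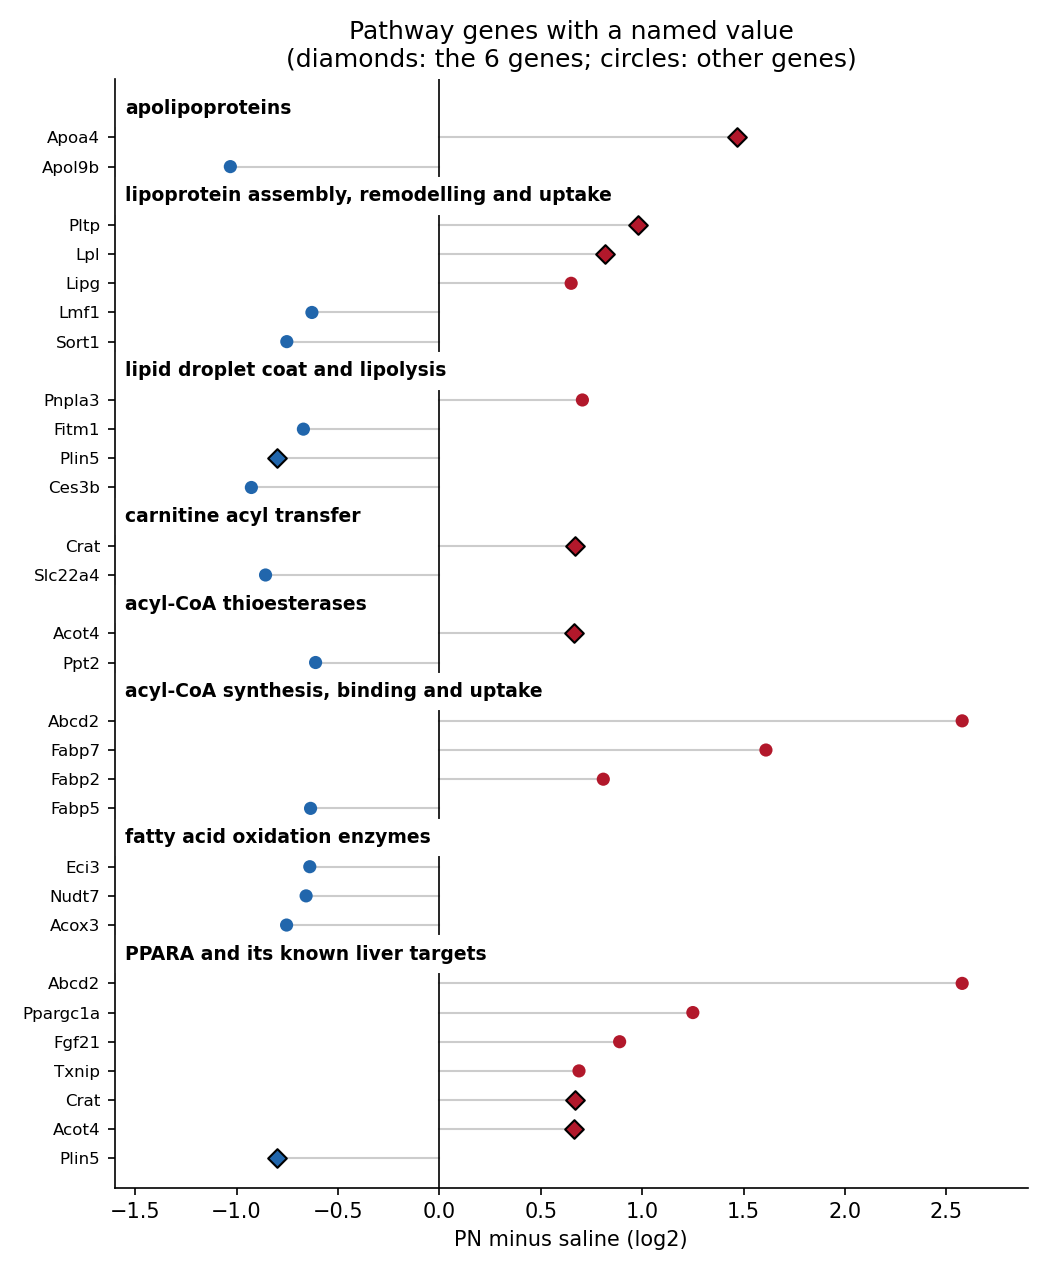
Difference between the PN pool and the saline pool on the log2 scale (horizontal axis) of each pathway gene with a named value, by list, with diamonds for the 6 genes and circles for the others, red higher and blue lower. On the droplet list 3 of the 4 drawn genes are lower, and on the oxidation list all 3, beside 872 of the 1750 named genes. Most genes of these lists had no named value. The drawn genes of the PPARA list other than Plin5 lie to the right of 0. Rows with several symbols are not drawn, among them that of Cyp4a10 and Cyp4a32, at -1.46.

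The nearest gene by level was sought without predicted, RIKEN and microRNA genes and those named by a sequence number. For each of the 6 genes the named gene left with the most similar levels was found, by the larger of its distances in either pool. These were G6pc for Apoa4, at a distance of 0.21, Hamp2 for Pltp (0.04), Golt1b for Lpl (0.03), Tmem218 for Plin5 (0.04), P4ha1 for Crat (0.02) and Nkap for Acot4 (0.01). Apoa4 had the most distant nearest gene of the 6. It also had the fewest named genes within 0.50 of its mean level, 21 against 88 for Pltp and up to 282 for Acot4. Levels of different probe sets are not amounts on a shared scale, and likeness over 2 arrays is easily met. Of 60 protein-coding neighbours, 5 on either side of each gene, Ints10 beside Lpl had a named value. It was 1.62-fold lower, whereas Lpl was higher.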

How the data were processed

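The deposited values are log2 levels of probe sets. They come from RMA (background correction, normalization between arrays, summary of probes), run by the authors in the program Affymetrix Expression Console (version 1.4.0.38), per the submitters' processing notes. Per the series' design text they then kept rows by a 1.5-fold cutoff, and the smallest absolute difference in the table was 0.585. The genome build is not given in the sources used here. Of 5082 rows 1779 carried 1 gene symbol, 161 several and 3142 none.

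Groups came from the labels. Rows with 1 symbol were averaged per gene, symbols were updated through Entrez identifiers (RefSeq, GRCm38.p6), and the difference is the PN level minus the saline level, with no pseudocount. A fold is 2 raised to the size of that difference. With 1 array per group no test was run, and the number of arrays limits the precision. The summed level of a marker list is the sum of 2 raised to each level. Promoter windows were scanned for 9 motifs. Protein sequences were not used here. The 6 genes and all lists were chosen with earlier results of these data known. Text names the 6 genes, pathway genes with a value, the nearest gene by levels and chromosome neighbours with a value. Cell type markers with a value are named too, except that only some macrophage and intestinal markers are. Those named from these 2 lists were picked afterwards, and the plot of cell type markers draws all that had a value. Other names, and listed genes named for having no value, were also picked afterwards. List medians and centring were tested on simulated data without a 1.5-fold cutoff, over genes with 1 row. For quantile normalization only the equal means of the 2 columns were checked there, which the method itself brings about. The other steps, averaging of several rows per gene among them, were not tested in this way. Alternatives were centring, quantile normalization, the brightest row, a raised background, rows with several symbols and a 2-fold cutoff. Python 3.11.15, numpy 2.4.6 and pandas 2.3.3 were used.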

Additional observations from a re-analysis of the deposited data

How the results depend on the processing

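The differences of the 6 genes were recomputed under 5 alternatives: arrays centred on the median of all rows or of rows with 1 symbol, quantile normalization, the brightest row of a gene, and levels raised to a background of 3.26, the median higher level of 133 chemosensory receptor rows. The values moved by at most 0.07 on the log2 scale, under a limit of 0.1 set by hand in the absence of replicates. This says little about stability. The raised background lies below every level of these genes, the brightest row concerns Lpl alone, and each centring adds 1 constant (0.02 or -0.07) to differences that the cutoff keeps away from 0. Quantile normalization put 2 of the 6 genes past 2-fold, Apoa4 and Pltp, in place of 1.

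Of 27 recomputed medians over 6 groups of other pathway genes, 22 moved by less than that limit. Counting rows with several symbols put the median of acyl-CoA synthesis, binding and uptake at 0.98 and that of the PPARA list at 0.89. Keeping rows of at least 2-fold put them at 2.09 and 1.91, over 2 genes each, and turned the median over all pathway lists from -0.63 to 1.43, over the 4 genes left. The lists of lipoprotein assembly, droplet coat and oxidation genes had no gene left under that cutoff. No replicate could be left out, since each group is 1 pooled sample on 1 array.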

Other observations

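Lpin2, which encodes a phosphatidate phosphatase on the path to triglyceride, was on none of the lists and is named after its values were seen. It had 2 rows. One went from 7.02 in the saline pool to 8.38 in the PN pool, or 2.57-fold, and the other from 9.72 to 10.5, or 1.74-fold. Both rows were thus higher, but by differences 0.57 apart, against 0.03 for the 2 rows of Lpl.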
